A study of Homo sapiens with 96 samples.

Results

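The introns described here are the retained introns (RI) longer than 300 and up to 1000 bases in A549 cells treated with inhibitors of protein arginine methyltransferases (PRMTs). An RI is an intron that stays in part of the polyadenylated transcripts of its gene. Members were chosen by length alone, as the distance between the end of the upstream exon and the start of the downstream exon, and 1529 of the 4928 RI listed (31.0%) fell within these limits. They lie in 1117 genes and have a median length of 500 bases. Of these genes, 277 hold 2 or more members, with at most 7 in a gene. Members were counted as listed, and those of a gene can overlap and share reads, so they are not all independent. Of the other RI, 962 are of 100 bases or less, 1757 are longer than 100 and up to 300 bases, and 680 are longer than 1000 bases. The rule uses no measured reads, but the length class was chosen with earlier results of these data known.

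A549 is a long-established human cell line derived from an adenocarcinoma of the lung. Poly(A) RNA was sequenced from 30 libraries in 10 groups of 3 libraries each. The PRMT5 inhibitor GSK591 (1 µM) and the Type I PRMT inhibitor MS023 (1 µM) were each given alone for 2, 4, or 7 days and together at these doses (co-treatment) for 2 or 4 days. The solvent alone, 0.01% DMSO, was given for 4 or 7 days as the control. Inhibitor groups of 2 and of 4 days have the 4-day DMSO group as their control, and 7-day inhibitor groups have the 7-day one, an assignment inferred from the labels. Comparisons that use the same DMSO libraries are therefore not independent, and at 2 days the time in culture differs from that of the control. The columns do not number the libraries, which are called a, b, and c by position, and the labels do not say that they came from separate cultures. The p-values thus measure the spread between these libraries. Reads counted on RI ranged from 3118222 to 5224249 per library, of which 831088 to 1456444 lay on members. Among genes with events in the tables, the epithelial genes KRT7, KRT8, KRT18, EPCAM, and CDH1 had reads, with KRT19 at 0, while PTPRC, PECAM1, and COL1A2 had 0 reads, CD3E had at most 18, and CD14 at most 75 in a table. In bulk RNA, fewer cells with a spliced transcript and less of it per cell cannot be told apart.

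Splicing removes introns in the nucleus, mostly while the transcript is still being made, and a transcript that keeps an intron is often held in the nucleus as a detained intron until it is spliced or degraded. PRMT5 places symmetric dimethylarginine, among others on the Sm proteins of the small nuclear ribonucleoproteins (snRNPs) that recognize splice sites, and the Type I PRMTs place asymmetric dimethylarginine on many RNA-binding proteins. An intron kept in a coding transcript usually brings a stop codon into the reading frame. Retention was measured as Ψ, the share of transcripts that hold the intron. The inclusion count (reads across either intron end or within the intron) and the skipping count (reads across the spliced junction) are each divided by the effective length of their form, and Ψ is the first over the sum of both. ΔΨ is Ψ with inhibitor minus Ψ with DMSO. A difference was called when its adjusted p was under 0.05 in a quasi-binomial F test moderated with limma and adjusted over all RI tested in that comparison.

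The splice sites of 8 introns that carry the main patterns are shown first. Each line reads 5′ to 3′ on the strand of the gene, from GRCh37, with exon and intron in lower case except the first 6 bases and the final 2 bases of the intron, which are in capitals. The first 3 introns rose with GSK591, those of TCEB2 and SUGP2 rose with GSK591 and fell with MS023, that of AHSA2 fell with GSK591, that of INVS fell with MS023, and that of BTF3 passed the test in no inhibitor contrast.
KIAA0195 5′ splice site: ccaGTGAGCcctggc
KIAA0195 3′ splice site: cagggtttgaactctctcccccAGgca
POLD1 5′ splice site: gagGTCAGGcccacc
POLD1 3′ splice site: ggtgtgactgccatgtggccgcAGgac
ANKZF1 5′ splice site: aggGTTTGAttacta
ANKZF1 3′ splice site: ttcacatgtcaggtttttccctAGgtt
TCEB2 5′ splice site: gcaGTGAGGaccccc
TCEB2 3′ splice site: tctaagtgccccccacccccatAGcct
SUGP2 5′ splice site: cgtGTACGCagcagg
SUGP2 3′ splice site: ctgactctctttttcactccctAGggg
AHSA2 5′ splice site: gagGTAAGTaactcc
AHSA2 3′ splice site: gtggaatttcccctctcttttcAGtta
INVS 5′ splice site: gagGTGAGAcagctg
INVS 3′ splice site: tgaatattgaccttctccccgtAGagc
BTF3 5′ splice site: gagGCAAGTatcaaa
BTF3 3′ splice site: tttaaatttttcttttcttaatAGgtg

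Of the 9 bases around the 5′ splice site (the last 3 of the exon and the first 6 of the intron), AHSA2 matched the nearer of the consensus forms (CAG, then GTAAGT or GTGAGT) at 8 and ANKZF1 at 4, while KIAA0195 and POLD1 matched at 6, TCEB2 and SUGP2 at 5, and INVS and BTF3 at 7. The BTF3 intron begins with GC, one of 29 members with GC-AG ends. In all, 1522 of the 1529 members (99.5%) began and ended with GT-AG, AT-AC, or GC-AG, against 3.07% when the same ends were read 7 bases further in, and 1316 (86.1%) were introns of the GENCODE annotation of this build.

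Of the 1529 members, 1340 were tested in at least 1 of the 11 inhibitor contrasts (8 with DMSO and 3 of GSK591 against MS023), which required 10 or more reads in every library of both groups, and 189 were tested in none. The filter counts both kinds of reads. Of the 1065 members tested in all 11, 734 were called in at least 1 and 331 in none, and the matching share over all RI is not given here. The median Ψ of these 1065 introns in each library was higher with GSK591 than with DMSO and lower with MS023. In DMSO it ranged from 0.179 to 0.183 at 4 days and from 0.176 to 0.192 at 7 days. With GSK591 it ranged from 0.237 to 0.261 at 2 days, from 0.281 to 0.289 at 4 days, and from 0.219 to 0.23 at 7 days, and in co-treatment from 0.25 to 0.274 at 2 days and from 0.267 to 0.273 at 4 days. With MS023 it ranged from 0.163 to 0.175 at 2 days, from 0.162 to 0.173 at 4 days, and from 0.154 to 0.158 at 7 days. No inhibitor group overlapped its DMSO group in this median. With 3 libraries against 3, no two-sided exact permutation test of such a median can reach a p of 0.05, so it is given as a description.

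**Figure D1:**
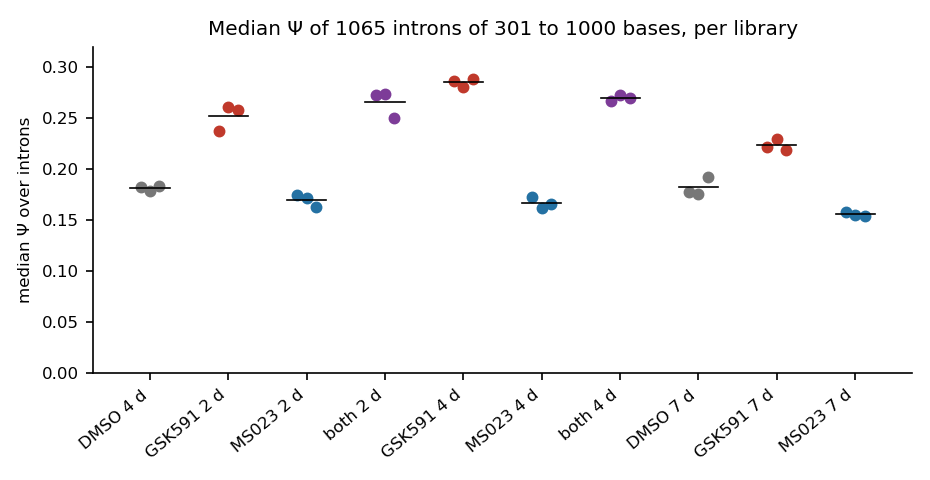
Median Ψ (vertical axis) over the 1065 introns tested in all 11 inhibitor contrasts, 1 point per library, with the group mean as a bar. Libraries with GSK591, alone or with MS023, sit between 0.219 and 0.289, above the DMSO libraries (0.176 to 0.192), and those with MS023 alone sit between 0.154 and 0.175.

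GSK591 raised the Ψ of many more members than it lowered. At 2 days 241 of the 1191 members tested had a higher Ψ (20.2%, against 24.0% of all RI tested) and 34 a lower one (2.85%, against 2.38%). At 4 days the counts were 358 higher of 1207 (29.7%, against 33.9%) and 66 lower (5.47%, against 4.32%), and at 7 days 206 higher of 1177 (17.5%, against 21.8%) and 96 lower (8.16%, against 6.1%). The share with a higher Ψ was thus below that of all RI on each day and the share with a lower Ψ above it. The median ΔΨ over members tested came to 0.01, 0.0118, and 0.00255 at 2, 4, and 7 days, against 0.015, 0.0196, and 0.00762 over all RI. Large changes were few, with ΔΨ of at least 0.3 in 19 members at 2 days, 43 at 4 days, and 19 at 7 days among those called higher, and of at most -0.3 in 3, 5, and 3 of those called lower. Over the 1065 introns, 145 were called higher with GSK591 on all 3 days and 18 lower on all 3 days. For the large changes and the calls on all days, matching shares over all RI are not given here. These counts therefore do not set members apart from other RI.

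The 388-base intron of KIAA0195 (TMEM94 in the current annotation, a transmembrane protein) rose with GSK591 until most of the transcripts counted held it. It lies at chr17:73489184-73489571 on the plus strand and is intron 16 of 31, within the coding sequence. Ψ was 0.377, 0.330, and 0.312 in DMSO at 4 days, 0.877, 0.857, and 0.856 with GSK591 at 2 days, and 0.921, 0.928, and 0.921 at 4 days. At 7 days it was 0.405, 0.424, and 0.464 in DMSO and 0.895, 0.878, and 0.904 with GSK591. ΔΨ was 0.524 ± 0.021 (SE, n = 3 libraries a group) at 2 days, 0.583 ± 0.020 at 4 days, and 0.461 ± 0.019 at 7 days. The adjusted p was 2.5e-08, 4.8e-12, and 5e-10, and the groups did not overlap on any day.

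POLD1 encodes the catalytic subunit of DNA polymerase delta. Its 569-base intron at chr19:50919084-50919652 on the plus strand is coding intron 22 of 26, and part of another annotated exon lies inside it. Ψ was 0.179, 0.190, and 0.192 in DMSO at 4 days and rose to 0.599, 0.614, and 0.661 with GSK591 at 2 days and to 0.796, 0.829, and 0.812 at 4 days. At 7 days Ψ was 0.285, 0.212, and 0.256 in DMSO and 0.862, 0.803, and 0.747 with GSK591. ΔΨ was 0.437 ± 0.019 at 2 days (adjusted p = 2e-10), 0.625 ± 0.010 at 4 days (1e-14), and 0.553 ± 0.039 at 7 days (1.2e-10). Co-treatment gave ΔΨ of 0.479 ± 0.033 at 2 days and 0.537 ± 0.015 at 4 days, also called.

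The 897-base intron of STK19, a nuclear protein named as a serine/threonine kinase, and the 414-base intron of FUK (FCSK, the fucokinase of fucose salvage) showed changes of similar size. STK19 (chr6:31947331-31948227, plus strand) had Ψ of 0.242, 0.210, and 0.228 in DMSO at 4 days and 0.769, 0.769, and 0.800 with GSK591 at 4 days. FUK (chr16:70501375-70501788, plus strand) had Ψ of 0.239, 0.284, and 0.391 in DMSO at 4 days and 0.733, 0.895, and 0.803 with GSK591 at 4 days. ΔΨ at 4 days was 0.553 ± 0.014 for STK19 (adjusted p = 4.3e-08) and 0.506 ± 0.065 for FUK (6.9e-06). In co-treatment at 4 days the Ψ of FUK was 0.725, 0.960, and 0.929, and its ΔΨ was 0.567 ± 0.086. FUK had 60 to 81 reads in each 4-day DMSO library, and its call with GSK591 at 2 days (0.304 ± 0.084, adjusted p = 0.0083) was lost without DMSO library a (ΔΨ 0.271).

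ANKZF1, which acts on nascent peptides of stalled ribosomes, has 2 members. The 537-base intron (chr2:220099011-220099547, plus strand, intron 9 of 13) had Ψ of 0.379, 0.422, and 0.279 in DMSO at 4 days, 0.660, 0.724, and 0.840 with GSK591 at 2 days, and 0.828, 0.839, and 0.799 at 4 days. At 7 days Ψ was 0.335, 0.343, and 0.399 in DMSO and 0.806, 0.759, and 0.775 with GSK591. ΔΨ was 0.381 ± 0.068 at 2 days (adjusted p = 0.00021), 0.462 ± 0.044 at 4 days (1.2e-07), and 0.421 ± 0.024 at 7 days (8.4e-09). The second member, of 395 bases (chr2:220100035-220100429), was retained in nearly all transcripts that the counts cover, with Ψ of 0.928, 0.900, and 0.969 in DMSO at 4 days and 0.954, 0.893, and 0.950 with GSK591 at 4 days. Its ΔΨ of 0.000 ± 0.028 did not pass the test (adjusted p = 0.99), and it passed in no other contrast. It is not an annotated intron, and part of another annotated exon lies inside it.

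HNRNPH1, a protein that binds runs of guanine in RNA and regulates splicing, has 3 members, of which a pair share their 3′ splice site and overlap, so that inclusion reads serve both. The 650-base intron (chr5:179043220-179043869, minus strand, intron 11 of 13) had Ψ of 0.082, 0.103, and 0.088 in DMSO at 4 days and between 0.287 and 0.308 in the 3 GSK591 libraries of 4 days. Its ΔΨ was 0.150 ± 0.014 at 2 days (adjusted p = 3e-09), 0.207 ± 0.009 at 4 days (1.7e-14), and 0.198 ± 0.007 at 7 days (1.3e-13). The 802-base intron (chr5:179043220-179044021) started higher, with Ψ of 0.438, 0.520, and 0.429 in DMSO at 4 days and 0.614, 0.605, and 0.635 with GSK591 at 4 days, a ΔΨ of 0.156 ± 0.030 (adjusted p = 5.2e-06). With MS023 at 4 days the 802-base intron was also higher (0.615, 0.633, and 0.538, ΔΨ 0.133 ± 0.041, adjusted p = 0.0078), whereas the 650-base intron had ΔΨ of 0.001 ± 0.007 and did not pass (adjusted p = 0.97). The MS023 call of the 802-base intron was lost without MS023 library a or b (ΔΨ 0.123 and 0.114). The 471-base intron of the 5′ untranslated region (chr5:179050166-179050636) stayed near its control, with Ψ of 0.082, 0.086, and 0.098 in DMSO and 0.081, 0.087, and 0.113 with GSK591 at 4 days, and it was called in no contrast.

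GSK591 lowered a smaller group of introns. AHSA2 (AHSA2P, related to the HSP90 co-chaperone Aha1) has an 827-base member at chr2:61412754-61413580 on the plus strand. Ψ was 0.545, 0.575, and 0.518 in DMSO at 4 days, 0.217, 0.261, and 0.254 with GSK591 at 2 days, and 0.262, 0.246, and 0.249 at 4 days. At 7 days Ψ was 0.455, 0.490, and 0.462 in DMSO and 0.197, 0.217, and 0.187 with GSK591. ΔΨ was -0.302 ± 0.021 at 2 days (adjusted p = 9.6e-08), -0.293 ± 0.017 at 4 days (5.6e-10), and -0.269 ± 0.014 at 7 days (2.8e-10), without overlap. With MS023 its ΔΨ was -0.014 ± 0.044, -0.047 ± 0.017, and -0.023 ± 0.037 at 2, 4, and 7 days, none of which passed the test.

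The 605-base final intron of ATXN2L (chr16:28847444-28848048, plus strand), a protein of stress granules, had Ψ of 0.773, 0.807, and 0.724 in DMSO at 4 days and 0.601, 0.530, and 0.487 with GSK591 at 2 days, a ΔΨ of -0.229 ± 0.041 (adjusted p = 3.4e-05). The 819-base final intron of TTC14 (chr3:180326599-180327417, plus strand), a protein with tetratricopeptide repeats, fell from 0.330, 0.339, and 0.283 in DMSO at 7 days to 0.063, 0.065, and 0.050 with GSK591, a ΔΨ of -0.258 ± 0.018 (adjusted p = 3.8e-10). An exon of CCDC39 lies on the other strand of the TTC14 intron, and whether the counting separated strands is not given in the sources used here. MFSD10 (359 bases, chr4:2933193-2933551), a transporter of the major facilitator family, fell with GSK591 at 4 days from 0.627, 0.723, and 0.528 to 0.353, 0.366, and 0.309 (ΔΨ -0.283 ± 0.059, adjusted p = 4.4e-05). TMEM91, AP1G2 (the gamma-2 subunit of the AP-1 clathrin adaptor), and PHF6 (a zinc finger protein of chromatin) also fell with GSK591 at 4 days, with ΔΨ of -0.262 ± 0.078, -0.141 ± 0.037, and -0.164 ± 0.029. The TMEM91 call was lost without DMSO library b or c or GSK591 library b (ΔΨ -0.243, -0.206, and -0.252). An exon of AP1G2-AS1 overlaps the AP1G2 intron on the other strand.

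MS023 changed fewer members, and most of those called had a lower Ψ. At 2 days 20 of the 1219 members tested were higher (1.64%, against 1.44% of all RI) and 70 lower (5.74%, against 4.21%). At 4 days 18 of 1212 were higher (1.49%, against 1.57%) and 85 lower (7.01%, against 5.6%), and at 7 days 33 of 1178 were higher (2.8%, against 1.93%) and 126 lower (10.7%, against 9.49%). The median ΔΨ was -0.00357, -0.00499, and -0.00636 at 2, 4, and 7 days, against -0.00316, -0.00404, and -0.00596 over all RI. These calls depend on the test, since limma on the log2 odds called 0 members on each day, with 164, 192, and 227 members at an unadjusted p under 0.05 at 2, 4, and 7 days. Their number also fell when certain single libraries were left out. The 90 calls at 2 days became 39 when MS023 library c was left out and 54 when library b was, and the 103 calls at 4 days became 53 when MS023 library c was left out and 64 when either of the others was.

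INVS, which encodes inversin of the primary cilium, has a 510-base member at chr9:103054719-103055228 on the plus strand, intron 14 of 17, which fell with MS023 on each day. Ψ was 0.638, 0.597, and 0.675 in DMSO at 4 days, 0.335, 0.409, and 0.362 with MS023 at 2 days, and 0.351, 0.298, and 0.262 at 4 days. At 7 days it was 0.651, 0.724, and 0.645 in DMSO and 0.366, 0.323, and 0.275 with MS023. ΔΨ was -0.268 ± 0.031 (adjusted p = 0.00018), -0.333 ± 0.034 (9.3e-05), and -0.352 ± 0.037 (4.1e-06), with no overlap between groups. GSK591 gave ΔΨ of -0.002 ± 0.025, 0.049 ± 0.027, and -0.027 ± 0.035, none called. The INVS intron brings no stop codon in frame.

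ARSA, the lysosomal arylsulfatase A, has a 405-base member (chr22:51065189-51065593, minus strand) that is not an annotated intron. Ψ was 0.812, 0.980, and 1.000 in DMSO at 4 days and 0.422, 0.649, and 0.560 with MS023 at 2 days (ΔΨ -0.387 ± 0.089, adjusted p = 0.00031). At 4 days Ψ with MS023 was 0.848, 0.551, and 0.510, so that the groups overlapped (ΔΨ -0.294 ± 0.122, adjusted p = 0.024), and this call was lost without DMSO library b, MS023 library b, or MS023 library c (ΔΨ -0.270, -0.252, and -0.231). In co-treatment Ψ was 0.591, 0.540, and 0.562 at 2 days and 0.518, 0.577, and 0.582 at 4 days, close to MS023 at 2 days. At 7 days MS023 gave ΔΨ of -0.096 ± 0.079, which did not pass (adjusted p = 0.43). The 878-base intron of ALS2CL fell with MS023 at 7 days from 0.859, 0.550, and 0.808 to 0.438, 0.465, and 0.298 (ΔΨ -0.339 ± 0.109, adjusted p = 0.018), and that call was lost without DMSO library a or c or MS023 library c (ΔΨ -0.279, -0.304, and -0.288).

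A few members were higher with MS023. ENTHD2 (TEPSIN, a partner of the AP-4 adaptor) has a 315-base member whose Ψ was 0.379, 0.408, and 0.332 in DMSO at 4 days and 0.597, 0.523, and 0.601 with MS023 at 2 days (ΔΨ 0.200 ± 0.034, adjusted p = 0.0011). FAM200B (538 bases) rose from 0.473, 0.402, and 0.331 to 0.643, 0.626, and 0.571 on the same day (ΔΨ 0.211 ± 0.046, adjusted p = 0.0046). NSD1, a histone methyltransferase, has a 740-base member in its 5′ untranslated region that rose with MS023 at 7 days from 0.103, 0.114, and 0.128 to 0.321, 0.274, and 0.338 (ΔΨ 0.196 ± 0.020, adjusted p = 1.9e-06). At 4 days the DMSO libraries of NSD1 were higher (0.301, 0.195, and 0.188), and MS023 at 4 days gave ΔΨ of 0.036 ± 0.042, which did not pass (adjusted p = 0.5). The 341-base ARL16 intron, in a gene for an Arf-like GTPase, rose with MS023 at 4 days by 0.165 ± 0.025 (adjusted p = 0.025) and with GSK591 at 4 days by 0.284 ± 0.009 (adjusted p = 1.1e-05). The first of these calls was lost without DMSO library b or c or MS023 library b or c (ΔΨ 0.145 to 0.166).

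**Figure D2:**
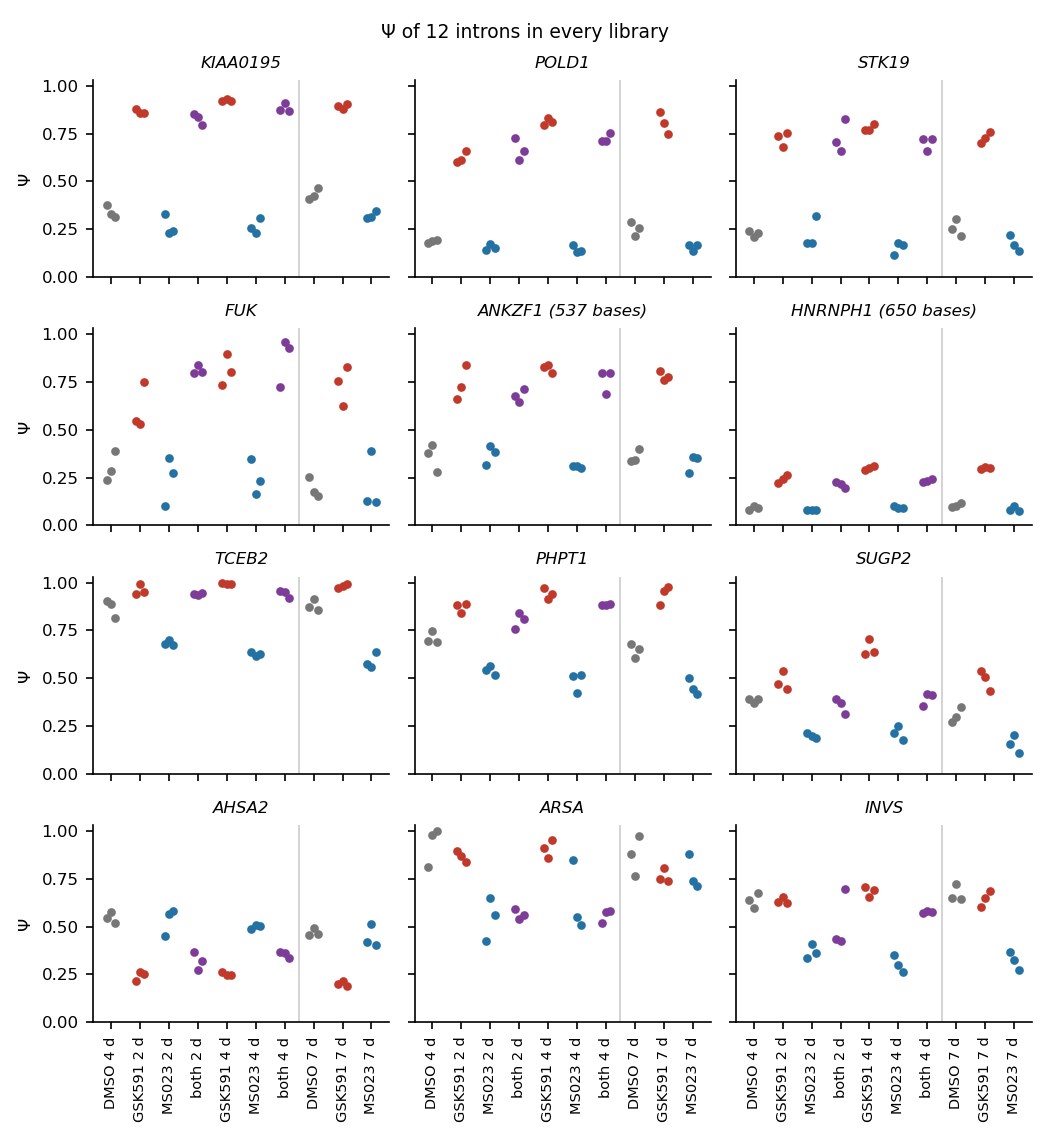
Ψ (vertical axis, 0 to 1) of 12 introns in each of the 30 libraries, 1 point per library, with DMSO in grey, GSK591 in red, MS023 in blue, and co-treatment in purple. The vertical line separates the 2- and 4-day groups with their 4-day DMSO control from the 7-day groups. The KIAA0195 points lie at 0.312 to 0.464 in DMSO and at 0.856 to 0.928 with GSK591, and those of INVS lie at 0.597 to 0.724 in DMSO and at 0.262 to 0.409 with MS023.

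Co-treatment gave counts near those of GSK591 at 4 days (461 and 424 members called) but larger ones at 2 days (381 and 275). At 2 days 303 of the 1204 members tested were higher (25.2%, against 29.7% of all RI) and 78 lower (6.48%, against 5.03%). At 4 days 368 of 1224 were higher (30.1%, against 33.6%) and 93 lower (7.6%, against 6.1%). The median ΔΨ was 0.0114 at 2 days and 0.0111 at 4 days, against 0.0161 on both days over all RI. Among members called higher, 32 at 2 days and 42 at 4 days had ΔΨ of at least 0.3, again without a share over all RI. COMMD4, of the COMM domain family, has a 597-base member (chr15:75631446-75632042, plus strand) whose ΔΨ in co-treatment at 4 days exceeded in size those of either inhibitor alone. Its Ψ was 0.952, 0.850, and 0.880 in DMSO at 4 days. On that day it was 0.816, 0.566, and 0.678 with GSK591, 0.790, 0.689, and 0.738 with MS023, and 0.384, 0.349, and 0.206 in co-treatment. ΔΨ was -0.207 ± 0.078 with GSK591 (adjusted p = 0.0057), -0.155 ± 0.042 with MS023 (0.072), and -0.581 ± 0.063 in co-treatment (2.5e-08). The GSK591 call was lost without GSK591 library b (ΔΨ -0.147), and the stretch is not an annotated intron. The difference between co-treatment and the single inhibitors was not tested.

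Setting GSK591 directly against MS023 on the same day uses no DMSO library. At 2 days 322 of the 1163 members tested were higher with GSK591 (27.7%, against 30.7% of all RI) and 55 lower (4.73%, against 3.5%). The counts at 4 days were 445 higher of 1181 (37.7%, against 40.1%) and 70 lower (5.93%, against 4.62%), and at 7 days 321 higher of 1144 (28.1%, against 32.5%), with 8.83% lower (against 6.9%). The median difference was 0.0128, 0.0202, and 0.00841 at 2, 4, and 7 days, against 0.0188, 0.0257, and 0.0149 over all RI. No library enters more than 1 of these 3 contrasts, so their lists can be laid over each other. Of the 1077 members tested in all 3, 237 were higher with GSK591 on all 3 days, which is 73.8% of the 321 called at 2 days, 54.5% of the 435 at 4 days, and 75.2% of the 315 at 7 days. Another 33 were lower on all 3 days, which is 62.3% of 53, 47.8% of 69, and 33.0% of 100, and 7 were called in opposite directions on different days. The matching shares over all RI are not given here, so this overlap between days is not read as particular to members. Across the 1077 introns Pearson's r of the differences was 0.843 between 2 and 4 days, 0.757 between 2 and 7 days, and 0.813 between 4 and 7 days (Spearman's rho 0.765, 0.654, and 0.707), as a description over introns, which share libraries and depth.

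KIAA0195 had the highest direct difference among introns with at least 50 reads in every library at 2 days, with 0.596 ± 0.032 (adjusted p = 7.7e-10), followed by 0.659 ± 0.022 at 4 days (2.7e-18) and 0.571 ± 0.014 at 7 days (6.3e-21). STK19 gave 0.499 ± 0.052, 0.626 ± 0.023, and 0.554 ± 0.031 on these days, and POLD1 gave 0.469 ± 0.020, 0.667 ± 0.015, and 0.647 ± 0.035. On the lower side were AHSA2 (-0.288 ± 0.043 at 2 days), PHF6 (-0.262 ± 0.030 at 4 days), TMEM91 (-0.352 ± 0.061 at 7 days), and MRPS22, a protein of the mitochondrial ribosome (-0.315 ± 0.081 at 7 days, adjusted p = 0.002).

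An intron of PSMD11, a subunit of the proteasome lid, was added after its values were seen, because its direct difference at 7 days was the largest in size among the members called. It has as few as 40 reads in a library and so fell outside the rule for named introns. This 769-base stretch (chr17:30806395-30807163, plus strand) is not an annotated intron and contains part of another exon. Ψ was 0.722, 0.745, and 0.583 in DMSO at 4 days and 0.086, 0.076, and 0.086 with GSK591 at 4 days, a ΔΨ of -0.600 ± 0.051 (adjusted p = 5.2e-10). At 7 days Ψ was 0.532, 0.460, and 0.697 in DMSO, 0.049, 0.069, and 0.053 with GSK591, and 1.000 in each of the 3 MS023 libraries, which held 56, 43, and 42 reads. The direct differences were -0.550 ± 0.056 at 2 days, -0.603 ± 0.118 at 4 days, and -0.943 ± 0.006 at 7 days. MS023 against DMSO gave 0.437 ± 0.070 at 7 days (adjusted p = 0.013), a call lost without MS023 library a or c, and 0.028 ± 0.073 and 0.003 ± 0.128 at 2 and 4 days, neither of which passed.

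Some members were called higher with GSK591 and lower with MS023 against the same DMSO libraries, 24 of 1161 at 2 days (2.07%, against 1.8% of all RI tested with both), 39 of 1172 at 4 days (3.33%, against 3.03%), and 50 of 1133 at 7 days (4.41%, against 4.69%). The reverse was called for 0, 3, and 7 members (0.159%, 0.209%, and 0.429% of all RI). These shares lay near those of all RI. As both inhibitors share the DMSO libraries on each day, these counts are given without a test. The 4 named by the rule were called in both directions on all 3 days. Those of TCEB2 and SUGP2 with GSK591 at 2 days and those of MTG1 with MS023 at 4 and 7 days were lost when any of 2 to 4 of the 6 libraries was left out. The TCEB2 call was lost without DMSO library b or c or GSK591 library b (ΔΨ 0.064 to 0.099) and the SUGP2 call without any DMSO library or GSK591 library b (0.073 to 0.105). The MTG1 call at 4 days was lost without DMSO library a or b or MS023 library b or c (-0.055 to -0.047), and that at 7 days without MS023 library a or b (-0.063 and -0.057). TCEB2 (ELOB, elongin B) has a 389-base final intron (chr16:2821606-2821994, minus strand). Its Ψ was 0.906, 0.887, and 0.817 in DMSO at 4 days, 1.000, 0.994, and 0.994 with GSK591 at 4 days, and 0.638, 0.617, and 0.628 with MS023 at 4 days. The direct difference reached 0.276 ± 0.019 at 2 days and 0.369 ± 0.006 at 4 days, and at 7 days it was 0.394 ± 0.024 (adjusted p = 6.1e-18).

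PHPT1, a phosphatase of phosphohistidine, has a 368-base coding intron (chr9:139744590-139744957, plus strand). Ψ was 0.695, 0.747, and 0.689 in DMSO at 4 days, 0.974, 0.916, and 0.942 with GSK591, and 0.510, 0.422, and 0.517 with MS023 on the same day, a direct difference of 0.461 ± 0.035 (adjusted p = 8.1e-11). SUGP2, a protein with SURP and G-patch domains, has a 657-base coding intron (chr19:19105296-19105952, minus strand). There Ψ was 0.390, 0.368, and 0.391 in DMSO at 4 days, 0.624, 0.706, and 0.635 with GSK591, and 0.214, 0.248, and 0.177 with MS023. In co-treatment Ψ of SUGP2 was 0.352, 0.415, and 0.413, with a ΔΨ of 0.010 ± 0.022 that did not pass (adjusted p = 0.84), between the values of the single inhibitors. The 558-base intron of MTG1 (chr10:135215095-135215652, plus strand), a GTPase of mitochondrial ribosome assembly, had Ψ of 0.254, 0.265, and 0.247 in DMSO at 4 days, 0.628, 0.647, and 0.641 with GSK591, and 0.217, 0.184, and 0.200 with MS023. Its co-treatment libraries lay at 0.644, 0.704, and 0.672, a ΔΨ of 0.419 ± 0.018 (adjusted p = 1.8e-12).

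The signed effect of GSK591, its ΔΨ, was lower at 7 than at 4 days for more members than it was higher. Of 1133 members tested for a difference between both effects, 85 had a lower effect at 7 days (background 5.85% of all RI) and 6 a higher one (background 0.378%). The 85 introns had a median ΔΨ of 0.0869 at 4 days and 0.000791 at 7 days, and 45 of them were above DMSO on both days, 33 were above it at 4 and below it at 7 days, and 7 were below it on both days. A lower effect is thus not always a smaller one, since 64 of the 85 had a smaller ΔΨ in size at 7 days and 21 a larger one, RPS9 and GAS5 among the latter. These values describe introns chosen by the same test. Without GSK591 library a of 7 days 60 rather than 91 members differed, and limma on the log2 odds called 2, with 193 at an unadjusted p under 0.05. For MS023, of 1128 members 1 had a lower effect at 7 days (background 0.241%) and 0 a higher one (background 0.0536%), while 0 were called by limma with 62 at an unadjusted p under 0.05. MTG1 had the clearest change among the named introns, as its GSK591 effect of 0.384 ± 0.008 at 4 days was 0.133 ± 0.020 at 7 days (difference -0.250, adjusted p = 3.4e-05). KIAA0195 and POLD1 had differences of -0.122 and -0.072 that did not pass (adjusted p = 0.11 and 0.31).

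The DMSO libraries themselves differed between days. Of 1205 members tested, 40 had a higher Ψ at 7 than at 4 days (3.32%, against 3.19% of all RI) and 69 a lower one (5.73%, against 5.51%). The count of 109 fell to 46 without 7-day DMSO library a and to 62 without library b, and limma on the log2 odds called 0, with 204 at an unadjusted p under 0.05. SIRT7, a deacylase of the nucleolus, was one of those called, with Ψ in DMSO of 0.646, 0.700, and 0.720 at 4 days and 0.335, 0.482, and 0.518 at 7 days (difference -0.243 ± 0.060, adjusted p = 0.0049). GSK591 gave 0.613, 0.547, and 0.609 at 4 days and 0.616, 0.612, and 0.541 at 7 days for this intron. Its ΔΨ with GSK591 was -0.099 ± 0.031 at 4 days (adjusted p = 0.056) and 0.145 ± 0.061 at 7 days (0.02), while the GSK591 libraries of both days overlapped. The 7-day call was lost without DMSO library a or GSK591 library a (ΔΨ 0.090 and 0.131), and the 909-base stretch is not an annotated intron.

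The splicing machinery itself held members. Of 17 members in 9 genes of snRNP and spliceosome components, 14 were tested in each direct contrast, and 5, 8, and 10 were higher with GSK591 at 2, 4, and 7 days while 0 were lower. Of all RI tested, 30.7%, 40.1%, and 32.5% were higher in these contrasts and 3.5%, 4.62%, and 6.9% lower, so that the 5 of 14 at 2 days lay near the share of all RI. The median difference of the 14 at 7 days was 0.0633, against 0.0149 over all RI. LUC7L, a protein associated with the U1 snRNP, has a 628-base final intron with Ψ of 0.081, 0.086, and 0.089 in DMSO at 4 days and 0.196, 0.176, and 0.178 with GSK591 (ΔΨ 0.098 ± 0.007, adjusted p = 4.4e-07). PRPF40B, another protein associated with the U1 snRNP, rose with GSK591 from 0.198, 0.128, and 0.213 to 0.346, 0.553, and 0.425 at 4 days (ΔΨ 0.262 ± 0.066, adjusted p = 0.0019). Its 7-day GSK591 libraries held only 21, 28, and 18 reads.

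The list of SR and SR-like proteins, which recruit the splicing machinery to exons, held 3 members, in the classical SR proteins SRSF1 and SRSF7 and in the SR-like protein TRA2A. All 3 were higher with GSK591 than MS023 at 4 and at 7 days (against 40.1% and 32.5% of all RI), and those of SRSF1 and TRA2A at 2 days. The 2-day call of SRSF1 was lost without MS023 library a or c or GSK591 library b (0.016 to 0.018), and limma on the log2 odds did not make it. The median difference at 4 days was 0.0711, that of SRSF7, against 0.0257 over all RI. SRSF7 fell outside the rule for named introns and is named here to complete the list, after its values were seen. The 759-base stretch of SRSF1 is not an annotated intron and contains part of another exon. It was retained nearly throughout, with Ψ of 0.988, 0.991, and 0.976 in DMSO at 4 days, 0.985, 0.977, and 0.971 with GSK591, and 0.956, 0.955, and 0.951 with MS023. Its ΔΨ with MS023 at 4 days was -0.031 ± 0.005 (adjusted p = 0.0018), and with GSK591 -0.007 ± 0.006, which did not pass. TRA2A had Ψ of 0.920, 0.849, and 0.931 in DMSO at 4 days, 0.936, 0.988, and 0.988 with GSK591, and 0.871, 0.882, and 0.772 with MS023, and passed the direct test (0.129 ± 0.039, adjusted p = 0.0057) but neither comparison with DMSO. The direct call was lost without MS023 library c (0.094), and that at 7 days (0.122 ± 0.055, adjusted p = 0.034) without MS023 library a or b or GSK591 library a or b (0.087 to 0.118).

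Genes of hnRNPs and related RNA-binding proteins held 15 members in 10 genes, of which 5 of 13 were higher and 0 lower in the direct contrast at 7 days, near the 32.5% of all RI called higher, with a median of 0.0033 against 0.0149 over all RI. EWSR1, an RNA-binding protein of the FET family, has a 318-base member with Ψ of 0.714, 0.732, and 0.726 in DMSO at 4 days and 0.981, 0.941, and 0.968 with GSK591 (ΔΨ 0.239 ± 0.013, adjusted p = 5.6e-07). At 7 days MS023 lowered it from 0.840, 0.887, and 0.850 to 0.741, 0.739, and 0.760 (ΔΨ -0.112 ± 0.016, adjusted p = 0.0027). Of the 8 members in 4 genes of the CLK, DYRK, and SRPK list, kinases that phosphorylate splicing factors, 4 were higher and 0 lower in the direct contrast at 4 days (against 40.1% and 4.62% of all RI), with a median of 0.0226 against 0.0257 over all RI. At 2 days 2 of 8 were higher and 0 lower (against 30.7% and 3.5%). At 7 days 2 of 7 were higher and 1 lower (against 32.5% and 6.9%). A pair in PRPF4B, a kinase of the tri-snRNP, moved differently. The 512-base intron rose with GSK591 at 2 days from 0.715, 0.699, and 0.773 to 0.944, 0.921, and 0.974, while the 600-base intron had Ψ of 0.035, 0.047, and 0.054 in DMSO and 0.024, 0.025, and 0.029 with GSK591 (ΔΨ -0.019 ± 0.006, adjusted p = 0.037). The call of the 600-base intron was lost without DMSO library b or c or GSK591 library a or b (ΔΨ -0.019 to -0.015).

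Chromatin modifiers held 22 members in 14 genes, of which 11 of 20 were higher with GSK591 than MS023 at 4 days and 2 lower (against 40.1% and 4.62% of all RI), with a median of 0.0475 against 0.0257 over all RI. At 2 days 7 of 20 were higher and 1 lower (against 30.7% and 3.5%). At 7 days 6 of 19 were higher and 1 lower (against 32.5% and 6.9%), near the shares of all RI. The median at 7 days was 0.000922, against 0.0149 over all RI. The 380-base intron of SMARCC2, a core subunit of the BAF chromatin remodelling complex, rose from 0.064, 0.064, and 0.084 in DMSO at 4 days to 0.345, 0.353, and 0.374 with GSK591 (ΔΨ 0.287 ± 0.011, adjusted p = 4e-12). HDAC10, a deacetylase of polyamines, has a 302-base intron that rose from 0.127, 0.201, and 0.148 to 0.411, 0.478, and 0.416 (ΔΨ 0.276 ± 0.031, adjusted p = 4.1e-05), and an antisense gene without a symbol has an exon on its other strand. DNA repair and replication genes held 6 members in 5 genes, of which 3 were higher and 0 lower at 4 days in the direct contrast, POLD1 among them, against 40.1% and 4.62% of all RI (median 0.0531, against 0.0257). At 2 days 3 of 6 and at 7 days 2 of 6 were higher (against 30.7% and 32.5%), and 0 were lower. The medians on these days were 0.0298 and 0.0224, against 0.0188 and 0.0149 over all RI. The 926-base intron of SLX4, a scaffold for nucleases of DNA repair, rose with GSK591 at 4 days from 0.273, 0.168, and 0.245 to 0.395, 0.355, and 0.409 (ΔΨ 0.158 ± 0.035, adjusted p = 0.0071), while at 7 days its ΔΨ of 0.019 ± 0.043 did not pass (0.74). The 4-day call was lost without DMSO library b (ΔΨ 0.127).

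Ribosomal protein and ribosome biogenesis genes held 24 members in 16 genes, with calls in both directions (7 higher and 4 lower of 21 in the direct contrast at 4 days, against 40.1% and 4.62% of all RI, with a median of 0.00164 against 0.0257). RPS9 fell in co-treatment at 4 days from 0.447, 0.476, and 0.433 to 0.229, 0.240, and 0.230 (ΔΨ -0.219 ± 0.013, adjusted p = 3.7e-10). With GSK591 alone the ΔΨ of RPS9 was 0.047 ± 0.032 at 2 days, which did not pass (adjusted p = 0.15), -0.056 ± 0.014 at 4 days (0.034), and -0.163 ± 0.031 at 7 days (2.3e-05). The 4-day call was lost without DMSO library a or b or any GSK591 library (ΔΨ -0.060 to -0.044). RPL3, whose 796-base stretch contains SNORD83B, fell with GSK591 at 4 days from 0.519, 0.569, and 0.630 to 0.358, 0.324, and 0.430 (ΔΨ -0.202 ± 0.045, adjusted p = 0.0009). The RPL3 stretch is not an annotated intron, and part of another exon lies inside it. Among 15 members in 6 small nucleolar RNA host genes, 5 of 13 were higher and 0 lower in the direct contrast at 4 days, near the 40.1% of all RI called higher, and the median of 0.013 was below the 0.0257 over all RI. The 524-base GAS5 intron (chr1:173833843-173834366, minus strand) had Ψ of 0.234, 0.229, and 0.235 in DMSO at 4 days, 0.283, 0.310, and 0.345 with GSK591 at 2 days, and 0.118, 0.105, and 0.116 with MS023 at 2 days. GAS5 was called higher with GSK591 at 2 days and lower at 7 days. Its ΔΨ was 0.080 ± 0.018 at 2 days (adjusted p = 0.00033) and -0.016 ± 0.003 at 4 days, which did not pass (0.14). At 7 days GAS5 fell with GSK591 from 0.172, 0.169, and 0.213 in DMSO to 0.102, 0.118, and 0.119 (ΔΨ -0.072 ± 0.015, adjusted p = 1.4e-06). The calls of GAS5 at 2 and 7 days were kept whichever library was left out, but limma on the log2 odds made neither of them. In co-treatment it lay below MS023 at 4 days, at 0.065, 0.066, and 0.065 against 0.107, 0.093, and 0.082, a difference that was not tested. SNHG17 rose with GSK591 at 4 days from 0.880, 0.775, and 0.785 to 0.982, 0.955, and 0.971 (ΔΨ 0.156 ± 0.034, adjusted p = 0.0038).

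The remaining lists were small. Aminoacyl-tRNA synthetase genes held 5 members, of which 0 were higher and 2 lower in the direct contrast at 7 days (against 32.5% and 6.9% of all RI), and the CARS intron (cysteinyl-tRNA synthetase) fell with GSK591 at 7 days from 0.090, 0.093, and 0.128 to 0.043, 0.055, and 0.037 but rose with MS023 to 0.172, 0.143, and 0.146 (direct difference -0.109 ± 0.010, adjusted p = 2.8e-17). The mRNA export list held 2 members, of which the one in DDX19A, a helicase of mRNA export, rose with GSK591 at 2 days from 0.050, 0.058, and 0.037 to 0.216, 0.193, and 0.155 (ΔΨ 0.140 ± 0.019, adjusted p = 4e-06). The other was not called in that comparison, where 24.0% of all RI were higher and 2.38% lower. Nonsense-mediated decay and RNA surveillance genes held 6, of which 1 was called higher in each direct contrast, the 537-base ANKZF1 intron, and 0 were lower. Of all RI, 30.7%, 40.1%, and 32.5% were higher at 2, 4, and 7 days and 3.5%, 4.62%, and 6.9% lower. The medians of the 6 were -0.00562, 0.00537, and -0.00261, against 0.0188, 0.0257, and 0.0149 over all RI. Among the PRMTs and their cofactors there was 1 member, in PRMT2, called lower with GSK591 at 7 days (ΔΨ -0.0951), as were 6.1% of all RI. With GSK591 at 2 and 4 days it was not called (ΔΨ 0.00842 and 0.00947). CHTOP and SNRPB, which the study examined, held no member.

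**Figure D3:**
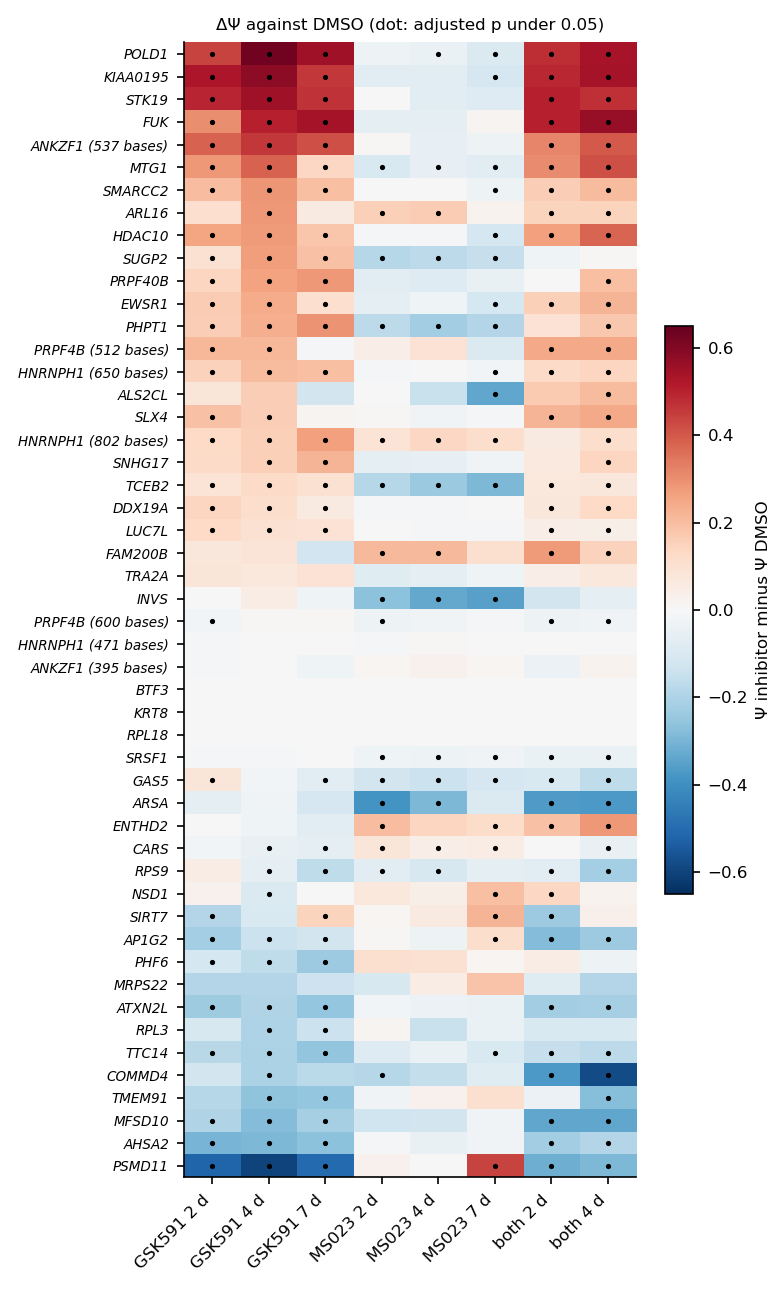
ΔΨ against DMSO (colour scale, red higher and blue lower with inhibitor) of 50 introns in the 8 comparisons, ordered by ΔΨ with GSK591 at 4 days, with a dot where the adjusted p was under 0.05. POLD1 (0.625) is at the top and PSMD11 (-0.600) at the bottom, and the GSK591 and MS023 columns of TCEB2, PHPT1, SUGP2, and MTG1 carry opposite colours.

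The deepest introns called in none of the 11 contrasts were spliced almost completely in every group. KRT8, a keratin of simple epithelia, has a 475-base intron with at least 17981 reads in each library and group means of Ψ from 0.002 to 0.004. In BTF3, a subunit of the nascent polypeptide-associated complex, the group means of the 314-base intron lay between 0.004 and 0.006, and the ΔΨ with GSK591 at 4 days was 0.000 ± 0.001. RPL18, of the large ribosomal subunit, lay between 0.002 and 0.006. Of these, KRT8 and RPL18 were called lower in DMSO at 7 than at 4 days, by 0.002 each.

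The share of calls differed between length classes, in an order that depended on the comparison. With GSK591 at 4 days 36.7% of RI of 100 bases or less, 38.2% of the next class up to 300 bases, 29.7% of members, and 27.8% of those over 1000 bases were higher, and 2.46%, 2.74%, 5.47%, and 8.71% were lower. At 2 days the shares were 28.9%, 27.9%, 20.2%, and 14.9% for higher and 1.05%, 1.5%, 2.85%, and 5.6% for lower. At 7 days they were 24.0%, 25.6%, 17.5%, and 18.1% for higher and 3.3%, 4.7%, 8.16%, and 9.25% for lower, so that members had the lowest share of higher calls. With MS023 at 4 days 3.86%, 5.21%, 7.01%, and 5.99% were lower, with members at the top. Within the members, 32.6% of those up to 450 bases were higher with GSK591 at 4 days, and 27.6% both of those over 450 and up to 650 bases and of those over 650 bases. Among introns within 10 bases of the lower limit, 18 of 49 tested just outside it and 20 of 50 just inside it were higher with GSK591 at 4 days. Within 10 bases of the upper limit 6 of 9 just inside and 0 of 4 just outside were. These shares are a description without a test, and GC content also differed between the classes, as given with the sequence features.

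**Figure D4:**
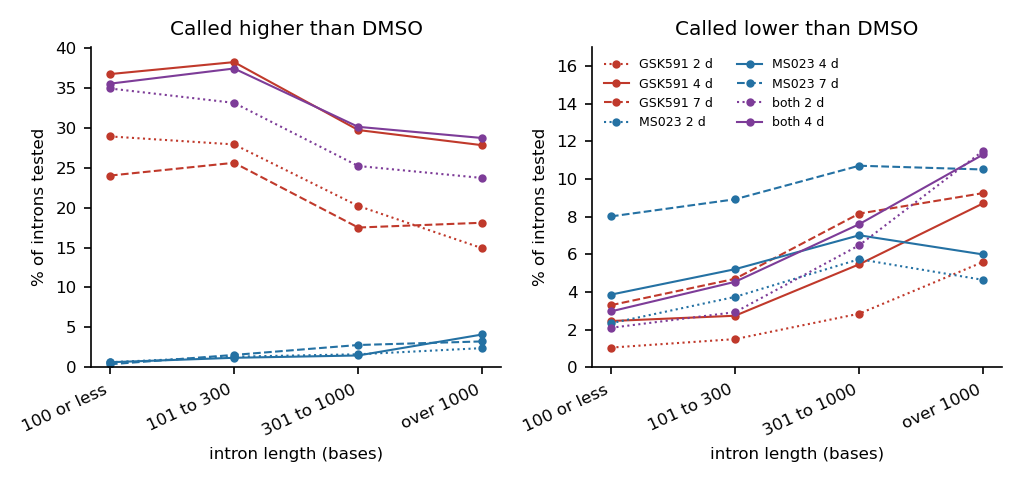
Share of the RI tested (vertical axes, %) that were called higher (left) and lower (right) than DMSO, in 4 length classes (horizontal axes), with 1 line for each of the 8 comparisons. With GSK591 at 4 days the share called higher goes from 36.7% at 100 bases or less to 27.8% over 1000 bases and the share called lower from 2.46% to 8.71%.

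Among members, the share of calls also differed with the starting level of retention. Members were divided by their mean Ψ in 7-day DMSO, which does not enter the 2- and 4-day comparisons. Matching shares over all RI are not given here, neither for these classes nor for the division by inner exons below. Neither division is therefore read as particular to members, and neither was tested. With GSK591 at 4 days 170 of 436 members under 0.1 were higher (39.0%), 112 of 202 from 0.1 to 0.3 (55.4%), and 74 of 527 over 0.3 (14.0%). With MS023 at 4 days 6.88%, 13.4%, and 5.36% of these classes were lower. In 66.9% of members part of another annotated exon lay inside the intron, where reads of that exon can enter the inclusion count. Among the named introns this held for POLD1, STK19, both of ANKZF1, AHSA2, ATXN2L, MFSD10, TCEB2, PHPT1, SUGP2, MTG1, and EWSR1, among others. It did not hold for KIAA0195, FUK, or INVS. With GSK591 at 4 days 150 of 407 members without such an exon were higher (36.9%) and 208 of 800 with one (26.0%). With MS023 at 7 days 31 of 394 without were lower (7.87%) and 95 of 784 with one (12.1%). In the direct contrasts 27.4% without and 27.8% with such an exon were higher at 2 days, and 38.9% and 37.1% at 4 days. At 7 days the shares lay further apart, at 24.6% without and 29.8% with one.

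The sequence and place of the introns that moved were set beside those of members called in no direct contrast, again without a test. The exon ended in guanine at 71.3% of the 237 introns that were above MS023 on all 3 days, at 78.8% of the 33 below it, and at 84.6% of the 475 called in no direct contrast. At the fifth intron base guanine stood in 69.6%, 78.8%, and 78.3%, and at the third in 46.4%, 45.5%, and 44.8%. The mean number of matches to the nearer consensus form given above, over 9 positions, was 6.07, 6.39, and 6.53. GC content had medians of 56.0%, 57.9%, and 52.5%. Of the annotated introns, 92.3% of the 237 interrupted coding sequence and 5.56% were the final intron of their transcript, whereas 73.3% of the 33 were coding and 40.0% were final, and 76.7% and 12.5% of the 475. The end of the transcript lay a median of 4600 bases away for the 237, 3060 for the 33, and 3500 for the 475. Set beside the other lengths, members had a median GC content of 55.3%, against 63.4% and 59.3% in the shorter classes and 47.6% in the longer one, and 95.8% of those in a coding frame met a stop codon in frame, against 51.7%, 77.9%, and 99.3%.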

How the data were processed

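Poly(A) RNA of 30 A549 libraries in 10 groups had been sequenced as stranded 150-nt paired-end reads. Per the labels, the authors' processing named Trim Galore 0.6.5, STAR 2.4.2a, Picard 2.3.0, deepTools 3.3.1, and the hg19 build, and rMATS was named as version 4.0.2 in the labels and the methods text (4.1.0 in the list of resources). Whether the counting separated strands is not given in the sources used here. The deposited rMATS tables hold, for each RI and library, inclusion and skipping counts of reads on junctions and exon bodies, effective lengths, and Ψ. Their columns of the authors' own p-values, false discovery rates, and Ψ differences were not used. The control columns gave the same counts in every table that shares a control, and the deposited Ψ came out of these counts and lengths to within 0.0005. Samples were grouped by the labels.

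Counts of the 2 forms were fitted with a logistic model of the 2 groups per RI in R 4.3.3. The residual spread was moderated by limma 3.58.1 (squeezeVar) and held at 1 or above, and F-test p-values were adjusted by Benjamini-Hochberg over all RI with 10 or more reads in every library of both groups. Calls used adjusted p under 0.05. The step was also run on simulated data, with the spread taken from the same fits or set to a fixed value. Such data cannot decide between this test and limma on the log2 odds where their calls differ. SE is that of the difference between group means of Ψ. The change of an effect between days was tested on 4 groups together. Alternatives were limma on log2 odds with 0.5 added to each count, 20 or 1 as the minimum of reads, a minimum size of 0.05 in ΔΨ, leaving out each library, Ψ without effective lengths, and, chosen after seeing the data, a prior spread from all introns. Depth was 3118222 to 5224249 reads on RI per library. Reads without molecular identifiers are not independent molecules, so SEs reflect the libraries compared.

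Introns were named by rule among those with 50 or more reads in all 30 libraries and tested in all 11 inhibitor contrasts. The rule took the 2 highest and 2 lowest called in each contrast, the 4 called higher with GSK591 and lower with MS023 on most days, the 3 deepest called in none, the members of ANKZF1, HNRNPH1, CHTOP, and SNRPB, and, at any depth, up to 2 per gene list called in the direct contrast at 2 days. It gave 49 introns, and PSMD11 was added after its values were seen. The members and gene lists were chosen with earlier results of these data known. Splice sites were read from GRCh37 with GENCODE 44 lifted to that build.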

Additional observations from a re-analysis of the deposited data

Results flagged for a closer look

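The GSK591 effect on Ψ differed between 7 and 4 days, by the test of that difference itself, for 7 of the named introns. It was lower at 7 days for MTG1 (-0.250, adjusted p = 3.4e-05), ARL16 (-0.227, 0.033), RPS9 (-0.107, 0.048), SMARCC2 (-0.093, 0.019), and GAS5 (-0.055, 0.0011). It was higher at 7 days for SIRT7 (0.244, adjusted p = 0.018) and the 802-base intron of HNRNPH1 (0.112, 0.021). Each day has its own DMSO libraries, and SIRT7 and GAS5 also differed between these (-0.243 and -0.048 in Ψ, both called), so a change in the control enters the difference. The effect of MS023 on these 7 introns did not pass the same test. A value far from the others within a group was not looked for, since each group has 3 libraries.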

How the results depend on the processing

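No paired analysis was possible because the columns carry no replicate numbers. With limma on the log2 odds, calls among members numbered 136 rather than 275 with GSK591 at 2 days, 237 rather than 381 in co-treatment at 2 days, 170 rather than 302 with GSK591 at 7 days, and 2 rather than 91 for the change of the GSK591 effect. For MS023 against DMSO it called 0 at 2, 4, and 7 days, with 164, 192, and 227 members at an unadjusted p under 0.05, and it called 0 between DMSO groups (204) and for the change of the MS023 effect (62). With ΔΨ of at least 0.05 required, calls with MS023 numbered 48, 58, and 95 at 2, 4, and 7 days and 45 between DMSO groups, of which 48.9% rather than 36.7% were higher. A prior spread from all introns gave 16 calls between DMSO groups. Without effective lengths the median ΔΨ was -0.00382 with MS023 at 2 days, 0.0145 with GSK591 and 0.0121 in co-treatment at 4 days, -0.00537 with MS023 at 7 days, and 0.0233 and 0.0106 in the direct contrasts at 4 and 7 days. Leaving out each library gave 212 to 309, 369 to 389, and 243 to 287 calls with GSK591 at 2, 4, and 7 days, 39 to 94, 53 to 105, and 113 to 129 with MS023, and 316 to 353 and 401 to 434 in co-treatment at 2 and 4 days. It gave 306 to 412, 445 to 485, and 366 to 401 in the direct contrasts, 46 to 102 between DMSO groups, and 60 to 80 and 0 to 4 for the changes of the GSK591 and MS023 effects. Of 330 calls of named introns, 267 stayed past the threshold whichever library was left out, 63 were lost without at least 1, 0 changed sign, and 231 were also called by limma. Ψ of introns with few reads is limited by depth.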
